A study of Mus musculus with 10 samples.

Results

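The renin-angiotensin genes described here are Ren1, Agt, Ace, Agtr1a, Agtr1b, Agtr2, Mas1, Mme and Enpep, chosen by name as renin, its substrate, the angiotensin peptidases and the angiotensin receptors. They are 9 of the 30431 rows, and of the 23276 rows with a gene name, in the 3 tables of comparisons that the authors deposited. RNA had been sequenced from whole mouse kidneys at postnatal day 21 in 10 libraries. The 4 wild-type libraries (WT) were the common control, and whether those animals carried floxed alleles or Cre is not stated in the labels. The 3 SM libraries had the genotype Pkhd1Cre; Pkd2 F/F, a polycystic kidney model in which a Cre driver expressed mainly in the collecting duct removes floxed Pkd2. The 3 DM libraries had the genotype Pkhd1Cre; Pkd2 F/F; miR-21null, the same deletion together with loss of the microRNA miR-21. Both mutant groups shared the Pkd2 deletion, so the set of genotypes held no group lacking miR-21 alone. Cre acts in a part of the tubule only, whereas the RNA came from every cell of the kidney.

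In this system the protease renin, released by juxtaglomerular cells of the afferent arteriole, cuts angiotensinogen to angiotensin I, and angiotensin-converting enzyme cuts that to angiotensin II. Angiotensin II acts on type 1 receptors to constrict vessels and retain sodium, while type 2 and Mas receptors mediate largely opposing responses. Within the kidney the proximal tubule makes angiotensinogen of its own, and peptidases on its brush border form, convert and degrade the peptides.

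The members that were measured well enough to compare fell into a substrate of nearly equal level in the 3 groups and a lower converting enzyme, type 1a receptor and degrading peptidase. Ace was 36.8% lower in SM than in WT, Agtr1a 33.1% lower and Enpep 32.4% lower, calculated from the fold changes in the authors' deposited table. In DM the same 3 genes were 37.5%, 45.8% and 33.0% lower than in WT, from the fold changes in the authors' deposited table. Agt lay at 117 CPM in WT, 119 CPM in SM and 120 CPM in DM. CPM here are read count levels on the scale of the authors' deposited values. On that scale the group totals were not equal. Summed over all rows, the levels came to 1100450 CPM in WT, 945509 CPM in SM and 936987 CPM in DM. The nearly equal level of Agt therefore holds on the deposited scale, and not after scaling to equal totals. Mme was not called in any comparison. None of the 9 genes differed between DM and SM after adjustment.

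The sequences that bear on these genes are shown first. The microRNA removed in DM has the mature 5p form printed here, taken from RefSeq on GRCm38.p6 at chr11:86584120-86584141, minus strand, with its seed (bases 2 to 8) in capitals. The word that pairs with this seed, ATAAGCT, was searched on the transcript strand in the longest annotated 3′ UTR of each gene. It was found in 1 of the 9 genes, Mme, in the 5698-base UTR of transcript Mme-205, and was not in the 1291-base UTR of Mme-201. The word was held by 1091 (8.50%) of 12828 coding genes averaging 1 CPM or more. The Mme match is printed with its flanks, from chr3:63385848-63385876 on the plus strand of GRCm38, with the word in capitals. A match is a description of letters and does not show that the microRNA binds there.
miR-21a-5p: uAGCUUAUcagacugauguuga
Mme site: ataacttaattATAAGCTtcgaataaatg

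The type 1a and type 1b receptors are products of duplicated genes whose reads can be hard to assign. Their coding sequences, 1080 bases each, differed at 99 bases (90.8% identity), and the proteins of 359 residues shared 337 (93.9%). By contrast Agtr1a and Agtr2, which has 363 residues, were identical at 33.6% of aligned residues. Of the 2150 stretches of 50 bases in the Agtr1a transcript compared, 33 (1.53%) were also in Agtr1b. The longest coding stretch without a difference is printed because a read inside it fits both genes. It covers coding positions 75 to 140 and lies at chr13:30381028-30381093 on the plus strand of GRCm38 in Agtr1a.
Agtr1a and Agtr1b shared: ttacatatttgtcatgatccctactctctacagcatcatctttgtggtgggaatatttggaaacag

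Promoters of the substrate and of the lowered peptidases were set side by side because these genes moved differently in the same kidneys. RefSeq promoters on GRCm38.p6, from 250 bases before to 50 bases after the start, matched 8 of the 9 genes, all but Agtr1a. Capitals mark matches on either strand to the TATA box (TATAAA), the CCAAT box (CCAAT), the GC box (GGGCGG) and the nuclear receptor core word (AGGTCA). Of 32851 promoters in the table, 13.6% held the TATA box, 37.4% the CCAAT box, 35.7% the GC box and 16.3% AGGTCA. The window of the long Ace transcript, at chr11:105967698-105967997 on the plus strand, held 4 GC boxes, of which a pair overlapped, and 1 TATA box. The Enpep window, at chr3:129332700-129332999 on the minus strand, held 2 matches to the TATA box word and 1 to the CCAAT box word. The Agt window, at chr8:124569657-124569956 on the minus strand, held 1 TATA box. A second Ace start within the gene, at chr11:105974939-105975238, held 1 CCAAT box and 1 AGGTCA. Counting both strands, none of the 4 words was shared by all 3 printed windows except the TATA box. It reads TATAAA in the printed Agt window, and as its reverse complement TTTATA in those of Ace and Enpep. A missing word says only that these letters are not in the window. A word that is present says only that the letters are there, at any distance from the start.
Ace: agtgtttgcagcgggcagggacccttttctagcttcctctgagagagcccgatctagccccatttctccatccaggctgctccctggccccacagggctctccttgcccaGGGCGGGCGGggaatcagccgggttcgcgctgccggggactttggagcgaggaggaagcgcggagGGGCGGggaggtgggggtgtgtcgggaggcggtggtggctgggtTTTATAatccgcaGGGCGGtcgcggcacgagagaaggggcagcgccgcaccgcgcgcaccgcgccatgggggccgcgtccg
Enpep: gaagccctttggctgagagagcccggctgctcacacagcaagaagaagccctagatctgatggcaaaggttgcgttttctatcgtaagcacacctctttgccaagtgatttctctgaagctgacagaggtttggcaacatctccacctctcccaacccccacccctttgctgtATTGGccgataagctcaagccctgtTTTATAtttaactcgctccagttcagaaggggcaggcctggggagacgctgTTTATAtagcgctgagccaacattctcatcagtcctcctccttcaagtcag
Agt: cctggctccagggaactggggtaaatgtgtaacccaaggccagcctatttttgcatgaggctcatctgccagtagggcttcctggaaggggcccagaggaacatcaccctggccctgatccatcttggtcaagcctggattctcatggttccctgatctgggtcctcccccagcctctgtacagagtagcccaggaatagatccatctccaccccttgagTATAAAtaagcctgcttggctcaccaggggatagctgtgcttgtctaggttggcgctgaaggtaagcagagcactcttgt

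All values per gene come from the authors' deposited comparisons. No value of a single library was used, so the spread among libraries and whether groups overlap are not shown. Each group level in CPM was calculated from the deposited average and fold changes, and has no error of its own. The error given with each log2 fold change is an implied standard error (SE), obtained from the size of the fold change and the root of its likelihood ratio, and a 95% interval was made from it. A gene was called where its deposited adjusted p was below 0.05. Depth per library was not known.

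The kidney identity of the samples was present in the markers, since all 8 genes of a kidney list exceeded 1 CPM. Umod, made by the thick ascending limb, was at 3553 CPM in WT, 2862 CPM in SM and 2981 CPM in DM. In the authors' deposited tables Pkd2 had a log2 fold change of -0.41 in SM against WT (adjusted p = 0.179) and -0.49 in DM against WT (adjusted p = 0.0838), and neither was called. The row Mir21 was at the lowest average, so loss of miR-21 was not checked by it. The renin, converting enzyme and receptor rows were read against 14.0% of all rows called in SM against WT and 13.5% in DM against WT. The counts of the other lists are to be read against the same shares. For rows called lower alone, the shares were 6.09% of all rows in SM and 5.92% in DM. By the authors' deposited tables, SM had 2394 of 30431 rows higher and 1854 lower than WT, and DM had 2299 higher and 1801 lower. Scaled to equal group totals, those splits became 3598 and 1077, and 3574 and 987.

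**Figure D1:**
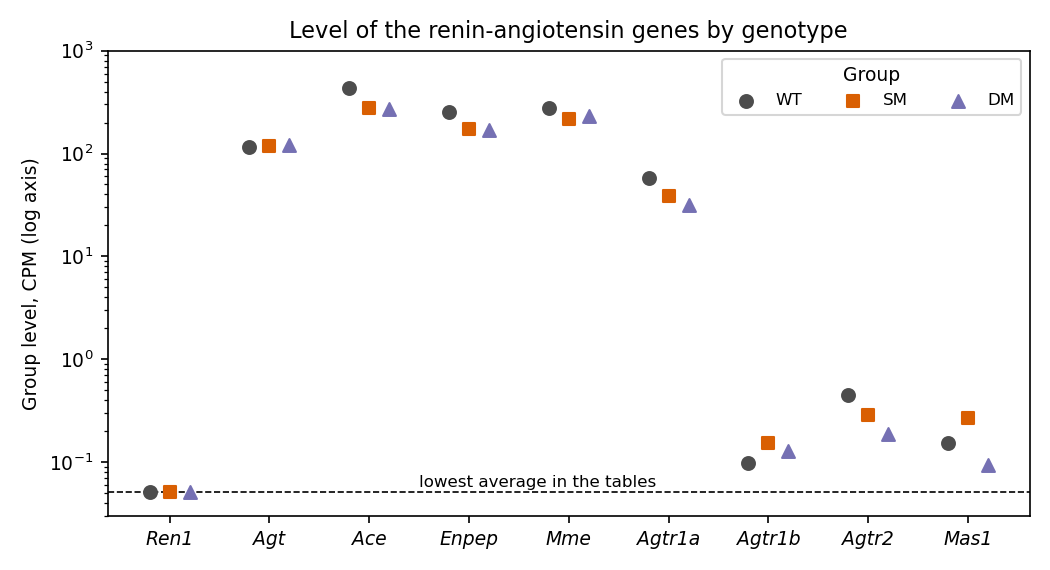
Group level of each renin-angiotensin gene in CPM on a log axis, for WT (circles), SM (squares) and DM (triangles); the points are calculated levels without error bars, and the dashed line is the lowest average in the tables. Agt, Ace, Enpep, Mme and Agtr1a lie between 31.3 and 437 CPM, and the other 4 genes lie under 0.5 CPM.

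Per kilobase of exon, which allows levels of different genes to be compared, the average over all libraries was 64.2 CPM per kb for Ace and 62.5 for Agt. Enpep followed with 43.6 CPM per kb, Mme with 21.2 and Agtr1a with 15.8. Agtr2, Mas1 and Agtr1b were far below, with 0.0962, 0.0645 and 0.0570 CPM per kb. Mme was divided by 11.5 kb of exon over all its transcripts, more than the 5.29 kb of Ace, which lowers its place if shorter transcripts were made. In WT the first place was Ace with 82.6 CPM per kb, ahead of Agt with 61.7. In SM this order was turned, with 62.7 CPM per kb for Agt and 52.2 for Ace, and in DM Agt was at 63.5 and Ace at 51.6. Enpep, Mme and Agtr1a followed in that order in all 3 groups. Whether neighbours in these orders differ beyond the spread of libraries could not be tested from group levels.

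Renin itself could not be measured from these tables. Ren1, which lies at chr1:133350510-133360325 on the plus strand of GRCm38, was listed at 0.0514 CPM, the lowest average in the files, with a log2 fold change of 0 in all 3 of the authors' deposited tables. The same lowest average was held by 3888 rows (12.8%), all with fold changes of 0. Ren2, the duplicated renin gene that some mouse strains carry, was listed at 0.0539 CPM. Renin genes share nearly identical sequence, but why both rows were so low was not tested. Neither a level nor a direction of renin is given.

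Genes known from the renin-producing cell or from the control of renin release were measured. Akr1b7, an aldo-keto reductase enriched in renin cells, was at 8.94 CPM in WT, 5.68 CPM in SM and 5.10 CPM in DM. Its log2 fold changes in the authors' deposited tables were -0.65 ± 0.35 (SE) in SM (adjusted p = 0.238) and -0.81 ± 0.35 in DM (adjusted p = 0.110), and neither was called. Gja5, the connexin 40 of juxtaglomerular cells, had log2 fold changes of 0.30 and 0.16 in the authors' deposited tables and was not called. Of the 22 listed genes 1 was higher and 1 lower in SM, and 1 was higher and 2 were lower in DM. These counts stand beside 14.0% of all rows called in either direction in SM and 13.5% in DM. The higher one in both was Ptger4, a prostaglandin E2 receptor, with log2 fold changes of 1.05 and 0.87 in the authors' deposited tables. Nr1h3, the liver X receptor alpha, fell by 0.92 and 0.82 on the log2 scale in the authors' deposited tables. Vdr, the vitamin D receptor, fell by 0.88 in DM in the authors' deposited table, and in SM it had -0.71 and was not called. Median log2 fold changes of the list were -0.14 in SM and -0.21 in DM.

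Agt, angiotensinogen, lies at chr8:124556534-124569706 on the minus strand. On the scale of the deposited values its level was nearly equal in the 3 groups, at 117 CPM in WT, 119 CPM in SM and 120 CPM in DM. The log2 fold change in the authors' deposited table was 0.02 ± 0.20 (SE) in SM against WT, with a 95% interval of -0.36 to 0.41. In DM against WT it was 0.04 ± 0.20 in the authors' deposited table, with an interval of -0.35 to 0.43. Both adjusted p-values in the authors' deposited tables were 1, and the intervals still hold changes of about 0.4 on the log2 scale in either direction. Scaled to equal group totals the fold changes were 0.24 and 0.27. The liver is the main source of circulating angiotensinogen, and hepatocyte genes differed between the groups in both directions. Of 19 measured hepatocyte genes, 13 were lower in SM and 13 in DM. In SM 2 were higher and in DM 3, beside 14.0% and 13.5% of all rows called in either direction. The summed level of the hepatocyte genes was 556 CPM in WT, 380 CPM in SM and 365 CPM in DM. Much of the sum in the mutant groups was Fga and Cyp2e1, the latter at 115 CPM in SM and 67.5 CPM in DM. The sum is therefore not a measure of hepatocyte RNA. Alb, serum albumin, was at 132 CPM in WT, 0.328 CPM in SM and 1.03 CPM in DM. The implied SE of its log2 fold changes against WT was 1.49 in SM and 1.38 in DM. Fgg and Fga, fibrinogen genes, were called higher, with Fgg at 6.98 CPM in WT, 43.1 CPM in SM and 45.1 CPM in DM, and Fga at 27.8, 103 and 106 CPM. The part of hepatocyte RNA in the level of Agt was not tested.

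Ace, angiotensin-converting enzyme, lies at chr11:105967945-105989964 on the plus strand, and its product on endothelium and proximal tubule brush border makes angiotensin II. Its level was 437 CPM in WT, 276 CPM in SM and 273 CPM in DM. The authors' deposited table gave a log2 fold change of -0.66 ± 0.24 (SE) in SM against WT, with a 95% interval of -1.13 to -0.19 and an adjusted p of 0.0444. In DM against WT the authors' deposited table gave -0.68 ± 0.24, an interval of -1.15 to -0.21 and an adjusted p of 0.0389. Both mutant groups were thus about as far below WT, and both calls lay close to the threshold. In whole tissue, fewer cells of a type and less RNA per cell cannot be told apart.

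Agtr1a, the main angiotensin II receptor of the mouse kidney, lies at chr13:30336441-30382867 on the plus strand. Its level was 57.7 CPM in WT, 38.6 CPM in SM and 31.3 CPM in DM. In the authors' deposited table its log2 fold change was -0.58 ± 0.20 (SE) in SM against WT, with a 95% interval of -0.97 to -0.19 and an adjusted p of 0.0319. The largest called fold change of a member was that of Agtr1a in DM, where the authors' deposited table gave -0.88 ± 0.20 against WT, with an interval of -1.28 to -0.49 and an adjusted p of 3.33e-04. DM lay lower than SM by this measure, but that step was not called.

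Enpep, aminopeptidase A, which removes the first residue of angiotensin II to form angiotensin III, lies at chr3:129269175-129332720 on the minus strand. Its level was 255 CPM in WT, 173 CPM in SM and 171 CPM in DM. The log2 fold change in the authors' deposited table was -0.57 ± 0.20 (SE) in SM against WT (95% interval -0.96 to -0.17) with an adjusted p of 0.0384. In DM against WT it was -0.58 ± 0.20 (interval -0.97 to -0.18) with an adjusted p of 0.0336 in the authors' deposited table. As with Ace, the fold changes of both mutant groups were nearly equal in size.

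Mme, neprilysin, which degrades angiotensin I to angiotensin 1-7 and cleaves natriuretic peptides, lies at chr3:63241537-63386030 on the plus strand. Its level was 275 CPM in WT, 218 CPM in SM and 231 CPM in DM. The log2 fold changes in the authors' deposited tables were -0.33 ± 0.26 (SE) in SM (adjusted p = 0.531) and -0.25 ± 0.26 in DM (adjusted p = 0.683). Their 95% intervals, -0.85 to 0.18 and -0.77 to 0.26, include 0 as well as falls of the size seen for Ace and Enpep. Mme, the member with the seed word, had a log2 fold change of 0.08 in DM against SM in the authors' deposited table and was not called.

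The 3 remaining receptors were near the limit of the data. Agtr2, the type 2 receptor, at chrX:21484544-21489164 on the plus strand, was at 0.448 CPM in WT, 0.284 CPM in SM and 0.186 CPM in DM. Against WT the authors' deposited table gave DM a log2 fold change of -1.27 ± 0.59 (SE), where the unadjusted p was 0.0327 and the adjusted p 0.160. Mas1, the angiotensin 1-7 receptor, at chr17:12841079-12868143 on the minus strand, was at 0.153 CPM in WT, 0.266 CPM in SM and 0.0936 CPM in DM. Its log2 fold changes against WT in the authors' deposited tables were 0.80 ± 0.71 in SM and -0.71 ± 0.76 in DM, and neither was called. Agtr1b, at chr3:20314473-20367177 on the minus strand, was at 0.0979 CPM in WT, 0.151 CPM in SM and 0.127 CPM in DM, with fold changes within 1 SE of 0. At these levels changes of the size seen for Agtr1a were not detectable. Agtr1b is the type 1 receptor of the adrenal gland, and some adrenal cortex genes differed between the groups. Of 12 such genes, of which 4 reached 1 CPM, 4 were lower in SM and 6 in DM, beside 6.09% and 5.92% of all rows. None of the 12 was higher, and their summed level was 117 CPM in WT, 84.1 CPM in SM and 77.9 CPM in DM. Most of that sum was Fdx1 and Scarb1, at 61.0 and 42.5 CPM in WT, which are not restricted to the adrenal gland. Adjusted over rows averaging 1 CPM or more, 1 adrenal gene was called in each comparison, and with an F reference of 1 and 7 degrees of freedom 0 were. Hsd3b1, a steroid dehydrogenase, was at 2.13 CPM in WT, 0.0430 CPM in SM and 0.0599 CPM in DM, and Cyp11b2, aldosterone synthase, was at 0.169 CPM in WT and 0.00818 CPM in both mutant groups. The part of adrenal RNA in the Agtr1b row was not tested.

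Counted over the set, 3 of 9 genes were lower in SM than in WT, and 6.09% of all 30431 rows were. Among rows averaging 1 CPM or more, which 5 of the 9 genes reached, the share of rows called lower was 9.47%. In DM against WT 3 of 9 genes were lower, beside 5.92% of all rows and 8.53% of rows averaging 1 CPM or more. No member was called higher in either comparison. The median log2 fold change over the 9 genes was -0.33 in SM and -0.58 in DM, beside 0.00 over all rows in both. Both comparisons use the same WT libraries, so their likeness is not independent support. Of the 6 calls, 5 did not hold at a threshold of 0.01, and that of Agtr1a in DM did. With an F reference of 1 and 7 degrees of freedom in place of the chi-square, none of the 3 genes was called in either comparison. Scaled to equal group totals, an alternative chosen after seeing the data, Agtr1a in DM was the remaining call (log2 fold change -0.65, adjusted p = 0.0126), and Ace, Enpep and Agtr1a in SM had values of -0.44, -0.35 and -0.36.

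Loss of miR-21 on top of the Pkd2 deletion was addressed by DM against SM. By edgeR's likelihood ratio test 0 of 9 members were called, and 0.0789% of all rows were. At an unadjusted p below 0.05 the count was 1 of 9, beside 3.75% of all rows. That gene was Mas1, with a log2 fold change of -1.51 ± 0.77 (SE), an unadjusted p of 0.0499 and an adjusted p of 1 in the authors' deposited table. Agtr1a had -0.30 ± 0.21 in the authors' deposited table, with a 95% interval of -0.72 to 0.11 (unadjusted p = 0.153). For Ace the fold change was -0.02, with an interval of -0.51 to 0.48, and for Enpep it was -0.01, with an interval of -0.43 to 0.40, both from the authors' deposited table. Agt was at 0.02, with an interval of -0.40 to 0.43, in the authors' deposited table. Differences of up to about 0.4 to 0.7 on the log2 scale between the mutant groups therefore lie within the error.

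The other 21 listed genes that make, cut or receive angiotensins and the related kinins, 16 of them at or above 1 CPM, moved in both directions. In SM 2 were higher and 2 lower, in DM 2 were higher and 2 lower, and the list medians were 0.02 and 0.00. Over all rows, 14.0% were called in either direction in SM and 13.5% in DM. Klk1, tissue kallikrein of the connecting tubule, which releases kinins, was lowest, with -2.18 ± 0.35 (SE) in SM (adjusted p = 2.91e-08) and -1.78 ± 0.34 in DM in the authors' deposited tables. The kinin B2 receptor gene Bdkrb2 rose, with 1.56 ± 0.31 in SM and 1.91 ± 0.31 in DM in the authors' deposited tables. Anpep, aminopeptidase N, which degrades angiotensin III, fell by 0.92 in SM and 0.94 in DM on the log2 scale in the authors' deposited tables. Ctsd, the lysosomal protease cathepsin D, was higher in SM by 0.72, and Rnpep, aminopeptidase B, was higher in DM by 0.56, in the authors' deposited tables. Ctsd had 0.64 in DM and Rnpep 0.42 in SM, and neither was called there. None of the 21 was called in DM against SM by edgeR's likelihood ratio test. At an unadjusted p below 0.05 the count was 1 of 21, beside 3.75% of all rows. It was Cma1, the mast cell chymase that also makes angiotensin II, with a log2 fold change of 2.58 (unadjusted p = 0.0062, adjusted p = 0.797). Cma1 was near the lowest average, at 0.171 CPM in WT, 0.0438 CPM in SM and 0.263 CPM in DM.

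Markers of the cells that carry these genes also differed between the groups. Of 18 proximal tubule genes 14 were lower in SM and 14 in DM, beside 6.09% and 5.92% of all rows. All 18 had a negative fold change in both, and their summed level was 32042 CPM in WT, 13733 CPM in SM and 15158 CPM in DM. Kap, which was not called in either comparison, held 11798 CPM of that sum in WT, 4741 CPM in SM and 5917 CPM in DM. Slc22a6, the organic anion transporter 1 of the proximal tubule, had log2 fold changes of -1.68 and -1.50 in the authors' deposited tables. Of 10 other brush border proteins, Anpep among them, 5 were lower in SM and 6 in DM, with medians of -0.79 and -0.91. Their summed level was 3976 CPM in WT, 2295 CPM in SM and 2277 CPM in DM. Dpep1, dipeptidase 1 of the brush border, fell by 1.04 and 1.06 on the log2 scale in the authors' deposited tables, more than Enpep (0.57 and 0.58), Ace (0.66 and 0.68) and Mme (0.33 and 0.25) by size, a difference given without a test. Not every gene of the list fell as far as Dpep1. Dpp4 had log2 fold changes of -0.46 and -0.49 in the authors' deposited tables and was not called, and Mep1b had -0.64 and -0.71.

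Endothelium, a source of Ace, had 0 of 16 genes called in SM by edgeR's likelihood ratio test (2 at an unadjusted p below 0.05). In DM 4 of the 16 were lower, beside 5.92% of all rows. The summed endothelial level was 1730 CPM in WT, 1633 CPM in SM and 1327 CPM in DM. Emcn, endomucin, fell by 0.95 on the log2 scale in DM in the authors' deposited table. In SM it had -0.60 and was not called (adjusted p = 0.0666), and it was not called in DM against SM. Agtr1a is known from mural, mesangial and podocyte cells, among others. Of 12 mural and mesangial genes 6 were higher in SM and 4 in DM, beside 2394 and 2299 of all 30431 rows. Acta2, smooth muscle actin, was at 2.44 and 1.84 in the authors' deposited tables. The summed level of the list was 843 CPM in WT, 1985 CPM in SM and 1419 CPM in DM. The mural and mesangial medians were 0.73 and 0.35, and Pdgfrb, a receptor of these cells, was not called, with 0.25 and -0.22 in the authors' deposited tables. Of 10 podocyte genes 3 were lower in SM and 3 in DM, beside 6.09% and 5.92% of all rows. Nphs1, nephrin, was among them with -0.81 and -0.95 in the authors' deposited tables. The podocyte list had no common direction in SM, where 5 of 10 fold changes were negative and the median was -0.01, and in DM 7 of 10 were negative with a median of -0.37. Synpo, synaptopodin, was not called, with 0.44 and 0.17 in the authors' deposited tables. The summed podocyte level was 738 CPM in WT, 552 CPM in SM and 524 CPM in DM. None of the defining markers named was at 0. The part of these cell types in the values of Ace, Enpep, Mme and Agtr1a was not tested.

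**Figure D2:**
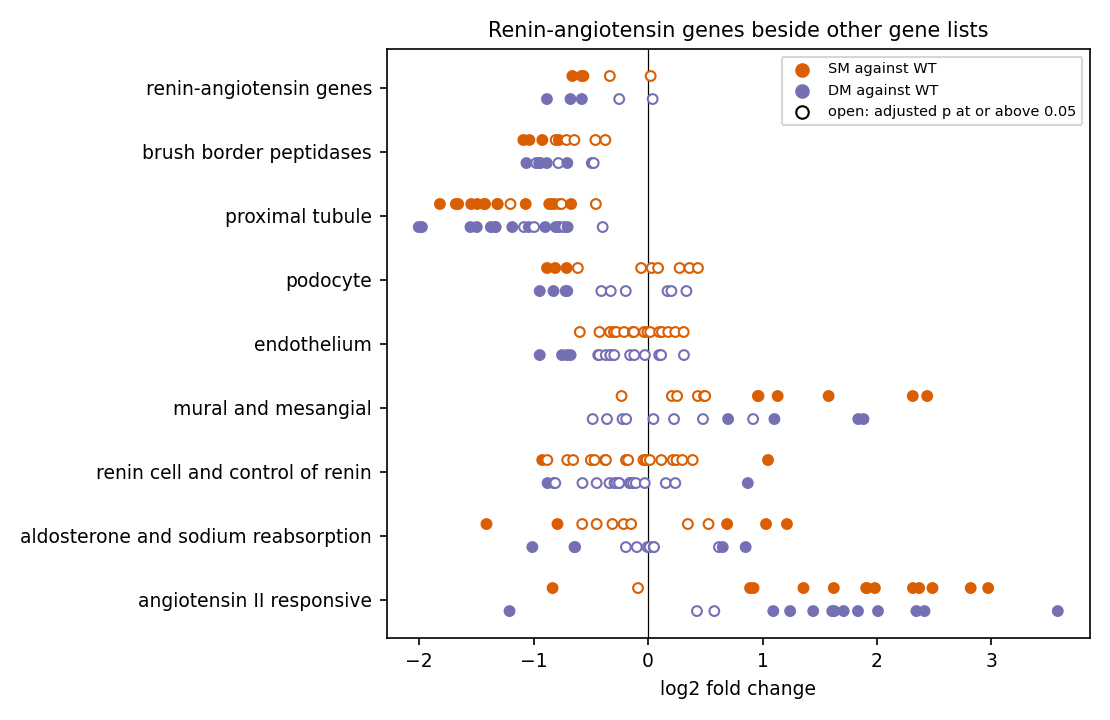
Log2 fold change of single genes averaging 1 CPM or more in the renin-angiotensin set and 8 other lists, in SM and DM against WT, with filled points for an adjusted p below 0.05. All proximal tubule and brush border points lie below 0, and most points of the angiotensin II responsive list lie above 0.

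Downstream of angiotensin II, aldosterone and its target genes for sodium reabsorption did not move one way. Of 12 genes 3 were higher and 2 lower in SM, and 2 were higher and 3 lower in DM, with medians of -0.18 and 0.00. Rows called in either direction were 14.0% of all rows in SM and 13.5% in DM. Hsd11b2, which protects the mineralocorticoid receptor from glucocorticoids, rose by 1.21 in SM and 0.85 in DM in the authors' deposited tables. Scnn1g, a subunit of the epithelial sodium channel, rose by 0.69 and 0.65 in the authors' deposited tables. Slc12a3, the thiazide-sensitive cotransporter of the distal convoluted tubule, fell by 1.41 and 1.01 on the log2 scale in the authors' deposited tables.

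Of 14 genes known to be induced by angiotensin II in cultured or whole tissue, 12 were higher and 1 lower in SM, and 11 were higher and 1 lower in DM. Rows called in either direction were 14.0% of all rows in SM and 13.5% in DM. The list medians were 1.91 and 1.62. Edn1, endothelin 1, was at 3.85 CPM in WT, 21.5 CPM in SM and 19.6 CPM in DM. Nox4, an NADPH oxidase abundant in the proximal tubule, was the lower one, with -0.83 and -1.21 in the authors' deposited tables. These genes respond to many signals, and 12 of 12 macrophage markers were also higher in SM and 11 of 12 in DM, with summed levels of 146 CPM in WT, 541 CPM in SM and 542 CPM in DM. The part of macrophages and of angiotensin II in these values was not tested.

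By the pair of log2 fold changes against WT alone, which rest on 3 group levels, the named rows nearest to each called member were listed as a description. Nearest to Ace were Slc25a12, Prepl and A630089N07Rik, at distances of 0.00917 to 0.0119 on the log2 scale. For Agtr1a they were Il22ra1, Has3 and Ntrk3, at 0.00496 to 0.0318, and for Enpep Tesk2, Nadkd1 and Gfpt2, at 0.00846 to 0.0117.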

How the data were processed

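Libraries of 10 whole kidneys were made from total RNA and keep the strand, per the labels' protocols. Named in the submitters' processing notes, without their roles, are edgeR 3.2.4, featureCounts, Subread 1.4.6, Cufflinks, TopHat2 2.0.12, bcl2fastq 1.8.4 and the build mm10. Per the file headers, each deposited row holds an average log2 CPM, a log2 fold change, a likelihood ratio score, a p-value and an adjusted p-value. On the files, the deposited adjusted p-value was the Benjamini-Hochberg value over all 30431 rows, and averages were the same in the 3 tables, so no filter on low values had been applied. The planned quasi-likelihood test needs counts of libraries, and the authors' deposited edgeR likelihood ratio test stood in for it, as planned.

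Group levels in CPM and the implied SE were calculated from the deposited log2 values with Python 3.11.15, pandas 2.3.3, numpy 2.4.6 and scipy 1.17.1, and figures drawn with matplotlib 3.10.9. The implied SE was tested on simulated counts with a fixed spread known to the test, at the levels of rows averaging 1 CPM or more. Lower rows and an estimated spread were not simulated. The implied SE is approximate and unreliable near the lowest average. Nothing in the labels says that libraries of a group came from separate animals beyond an animal-like number in each title. The p-values therefore treat libraries as the units, and not animals known to be separate. Samples were grouped by genotype labels. Positions and UTRs came from GENCODE M21 on GRCm38, the assembly of mm10.

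All 9 members are named. Of each other list, the called genes with the smallest adjusted p in each direction, up to 3 per comparison, and genes set beside a member are named. The 3 nearest rows were taken for each called member. Members and lists were chosen with earlier results of these data known. Alternatives changed the rows adjusted over, the threshold, the reference distribution and the centring. Scaling to equal totals was added after seeing the data. Some items of the lists are counted but not reported here.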

Additional observations from a re-analysis of the deposited data

How the results depend on the processing

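The counts of called members, 3 in SM against WT and 3 in DM against WT, were the same when p was adjusted over named rows or over rows of at least 1 CPM and after re-centring on the median, which shifted values by -0.01 and 0.00. At a threshold of 0.01 the counts were 0 and 1, with the F reference of 1 and 7 degrees of freedom 0 and 0, and scaled to equal totals 0 and 1. The F reference is wider by construction and left 682 rows called in SM against WT, 451 in DM against WT and 0 in DM against SM. Scaling to equal totals added 0.22 and 0.23 on the log2 scale to fold changes against WT. The other angiotensin and kinin genes had 4 called in each comparison, and 1 and 1 with the F reference, under which the proximal tubule counts were 4 and 3 and the brush border, podocyte and adrenal cortex counts 0. No value of a member turned direction while called. DM against SM had 0 called members in every alternative run. Under the F reference the adjusted p was 0.211 and 0.207 for Ace, 0.191 and 0.0856 for Agtr1a, and 0.202 and 0.199 for Enpep. No paired analysis was possible because the tables hold no value per library and the numbers in the labels are not shared between groups. Leaving out each replicate was not run for the same reason. No depth per library was known, and Agtr1b, Agtr2 and Mas1, all under 1 CPM, had implied SE of 0.58 or more.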

Other observations

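Other vasoactive peptide systems of the kidney, a list of 20 genes written after the tables were seen, held genes called in both directions. In SM 3 genes were higher and 2 lower, and in DM 2 were higher and 1 lower, beside 14.0% and 13.5% of all rows called in either direction. Edn1 had log2 fold changes of 2.48 and 2.34 in the authors' deposited tables, and its receptor gene Ednra 1.24 and 0.91. Corin, the protease that activates atrial natriuretic peptide, fell by 1.07 in SM on the log2 scale in the authors' deposited table, and Kng2, a kininogen, fell by 0.83. In DM against WT Corin had -0.31 and Kng2 -0.53, and neither was called. Avpr2, the vasopressin V2 receptor of the collecting duct, was higher in SM by 0.62, and Ednrb, the second endothelin receptor, fell by 0.64 in DM, in the authors' deposited tables. Avpr2 had 0.58 in DM and Ednrb -0.43 in SM, and neither was called there. None of the 20 was called in DM against SM by edgeR's likelihood ratio test, and 1 had an unadjusted p below 0.05, beside 3.75% of all rows.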
